A study of Mus musculus with 12 samples.

Results

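The genes described here were 10 mouse genes that tell of neutrophils in a tissue or call them there: S100a8, S100a9, Cxcr2, Csf3r, Ngp and Ltf, which neutrophils carry, and Cxcl1, Cxcl2, Cxcl5 and Csf3, which other cells release. They were taken by symbol, as every probe set annotated with 1 of these symbols and no other. This gave 12 probe sets for the 10 genes, of 17569 genes tested in all. All 12 probe sets passed the filter on low signals.

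Left lungs of 12 young adult male mice were each measured on 1 Affymetrix Mouse Genome 430 2.0 array, in 4 groups of 3. Nfkb1KO-O3 mice lacked Nfkb1 in the germ line (B6;129P-Nfkb1tm1Bal/J) and breathed O3 at 0.3 ppm for 48 h without a break, and Nfkb1KO-Air mice of the same line breathed filtered air. WT-O3 and WT-Air mice were wild type for Nfkb1 (B6129PF2/J, a bought hybrid strain and not littermates) and had the same exposures. Air and O3 were given in separate chambers, so that chamber and exposure cannot be told apart, and no group differed by treatment other than O3.

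Neutrophils leave the blood along gradients of ELR-type CXC chemokines. In mice Cxcl1, Cxcl2, Cxcl3 and Cxcl5 act on them through the receptor Cxcr2, while granulocyte colony-stimulating factor, encoded by Csf3, drives their production and release from marrow through its receptor Csf3r. S100a8 and S100a9 form calprotectin, the most abundant cytosolic protein pair of neutrophils, and Ngp and Ltf (lactoferrin) are stored in their secondary granules. Nfkb1 encodes p105 and its product p50, a subunit of the transcription factor NF-kB.

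The start sites of S100a8, S100a9, Cxcl1 and Cxcl2 are shown for the S100 pair, on which the calls between genotypes fell, and for a pair of chemokines of the set. Each sequence runs 5′ to 3′ on the strand of its gene over the 150 bases before the annotated start, from RefSeq on GRCm38.p6, at chr3:90668921-90669070 (+) for S100a8, chr3:90695722-90695871 (-) for S100a9, chr5:90891095-90891244 (+) for Cxcl1 and chr5:90903749-90903898 (+) for Cxcl2. Capitals mark matches to the NF-kB consensus, which read GGGAATTTCC in both chemokines.
S100a8: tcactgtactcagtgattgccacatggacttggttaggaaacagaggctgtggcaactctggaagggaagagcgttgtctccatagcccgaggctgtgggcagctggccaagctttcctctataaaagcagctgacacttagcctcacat
S100a9: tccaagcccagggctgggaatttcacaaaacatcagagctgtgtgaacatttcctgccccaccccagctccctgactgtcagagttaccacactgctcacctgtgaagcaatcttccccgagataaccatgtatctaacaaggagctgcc
Cxcl1: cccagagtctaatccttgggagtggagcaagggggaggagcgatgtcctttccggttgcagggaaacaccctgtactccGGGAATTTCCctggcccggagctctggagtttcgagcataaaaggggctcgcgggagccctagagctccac
Cxcl2: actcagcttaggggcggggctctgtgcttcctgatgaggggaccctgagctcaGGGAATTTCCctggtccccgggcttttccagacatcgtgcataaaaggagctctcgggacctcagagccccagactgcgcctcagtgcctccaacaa
The match ran from 71 to 62 bases before the start in Cxcl1 and from 97 to 88 bases in Cxcl2. The letters searched for were read from the Cxcl1 promoter, so that the exact match in Cxcl1 was fixed in advance. Among the 250 bases before each start, searched on both strands, these exact letters were found in 28 of 32851 mouse promoters (0.0852%). Cxcl3, the neighbouring Cxcr2 ligand, held it too, 73 to 64 bases before its start. The promoter table held 8 of the 10 genes, all but Cxcl5 and Csf3, and 6 of them (S100a8, S100a9, Cxcr2, Csf3r, Ngp and Ltf) had no exact match. By the wider NF-kB consensus, which allows other bases at some positions and takes in GGGAATTTCC, Csf3r also had a match, and 5% of all promoters had one. A match describes the sequence of this window only.

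The arrays were of like brightness but for 1. The median deposited signal was between 98.9 and 120.6 on 11 arrays, and 179.8 on Nfkb1KO-Air replicate 1, whose rank correlation with the others was also lowest, between 0.915 and 0.930. Summed signals of 10 skeletal muscle genes reached 36768 in WT-Air replicate 3. They were 9065 in Nfkb1KO-O3 replicate 2 and 5895 in WT-Air replicate 1, and between 553 and 2128 on the remaining arrays. Results below name Nfkb1KO-Air replicate 1 and WT-Air replicate 3 where they matter. Lung epithelial and endothelial markers were high in every group, with summed signals of 14 genes between 172330 and 199420, as the tissue label has it. No probe set was annotated Nfkb1 here, so the deleted gene gave no check of the genotype labels.

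Across the 10 genes, the calls between genotypes fell on the S100 pair and the call for O3 on a chemokine. Differences were fitted with limma on log2 signals and adjusted by Benjamini and Hochberg over all 17569 genes, with calls made where the adjusted p was under 0.05. After O3 2 of the 10 genes were called between Nfkb1KO and WT lungs (S100a8 and S100a9), against 0.723% of all genes, and in filtered air 1 was called (S100a8), against 0.342%. With O3, 1 gene was called in Nfkb1KO lungs (Cxcl5), against 6.18% of all genes, and 0 in WT lungs, against 5.4%. At an unadjusted p under 0.05, 4 of the 10 genes passed after O3, 7 in air, 2 for O3 in Nfkb1KO lungs and 1 for O3 in WT lungs. For the limma fit no share of all genes at this unadjusted threshold is given. These 4 counts are therefore not read as more or fewer than among all genes. Counts over all genes at this threshold are given further below, for another test only. The genotype by O3 interaction called 0 of the 10 (0 at an unadjusted p under 0.05), against 0.0342% of all genes. Signals and tests share arrays across comparisons: WT-Air, for example, serves both the genotype comparison in air and the O3 comparison in WT.

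Groups whose 3 arrays lay wholly apart were counted as well. After O3 the genotypes did not overlap for 5 of the 10 genes (S100a8, S100a9, Csf3r, Cxcl1 and Cxcr2, the last with its gap below the lower limit of the arrays), against 19.1% of all genes, and in air for 3 (S100a8, S100a9 and Csf3r), against 13.9%. O3 and air did not overlap for 3 genes in Nfkb1KO lungs (Cxcl1, Cxcl5 and Csf3, the last below the lower limit of the arrays), against 25.4%, and for Cxcl1 in WT lungs, against 27.6%. The median log2 difference of the 10 genes between Nfkb1KO and WT lungs was 0.73 after O3 and 0.91 in air, beside 0.00 and -0.01 over all genes. For O3 it was 0.16 in Nfkb1KO and 0.12 in WT lungs, beside -0.01 and -0.03.

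**Figure D1:**
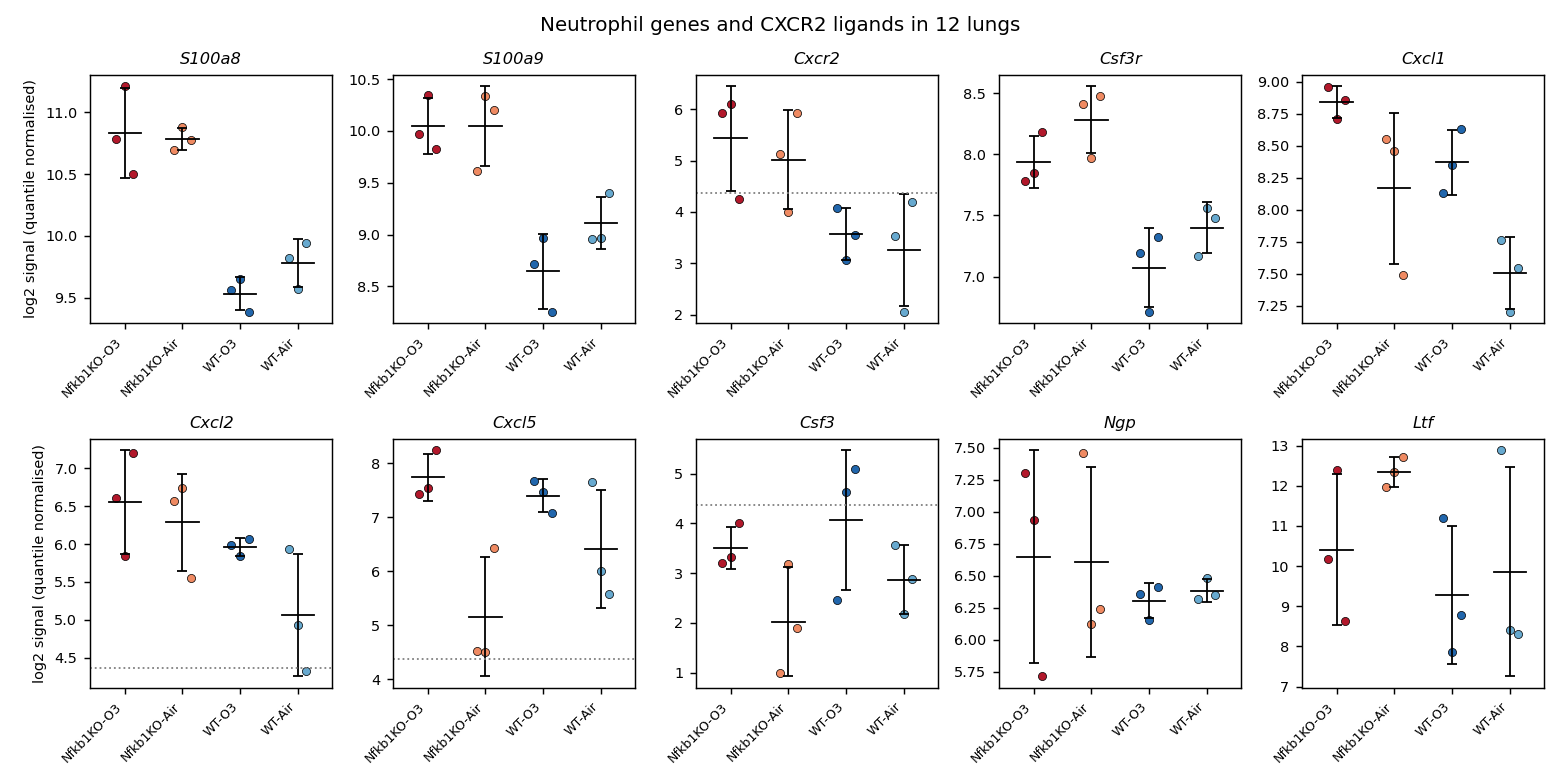
Log2 signal (quantile normalised, vertical axes, 1 scale per gene) of the 10 genes in the 4 groups (horizontal axes), with 1 point per lung, a bar at the mean and whiskers of 1 SD (n = 3). The dotted line is the lower limit of 4.37, drawn where values fall below it. All 6 Nfkb1KO lungs lie above all 6 WT lungs for S100a8, S100a9 and Csf3r, and Ltf spans the widest range.

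S100a8, the calprotectin subunit known as calgranulin A, was higher in Nfkb1KO lungs under both exposures. Its log2 signals were 10.79, 11.21 and 10.50 in Nfkb1KO-O3 lungs and 10.70, 10.88 and 10.77 in Nfkb1KO-Air lungs. In WT-O3 lungs they were 9.56, 9.65 and 9.39, and in WT-Air lungs 9.83, 9.57 and 9.95. The lowest Nfkb1KO lung stood above the highest WT lung, while O3 and air lungs of a genotype overlapped. Between Nfkb1KO-O3 and WT-O3 the difference was 1.30 ± 0.16 (SE; 2.46-fold; limma adjusted p = 0.00153), and between Nfkb1KO-Air and WT-Air it was 1.00 ± 0.16 (2.00-fold; limma adjusted p = 0.0203). The call in air was lost without WT-Air replicate 2 or any 1 of the 3 Nfkb1KO-Air arrays, with differences of 0.90 to 1.05 and adjusted p of 0.0579 to 0.0800. O3 gave differences of 0.05 ± 0.16 in Nfkb1KO lungs and -0.25 ± 0.16 in WT lungs (limma adjusted p = 0.900 and 0.435). Their 95% intervals ran from -0.30 to 0.40 and from -0.60 to 0.10. The interaction was 0.30 ± 0.23 (limma adjusted p = 0.865). The study's own list of selected genes gives S100a8 the opposite sign after O3, lower in Nfkb1-/- mice, while the direction here is that of the deposited signals. Being on that list, the gene is no independent evidence of a direction.

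S100a9, the partner subunit (calgranulin B), separated the genotypes likewise. It measured 9.97, 10.35 and 9.82 in Nfkb1KO-O3 lungs and 9.61, 10.34 and 10.20 in Nfkb1KO-Air lungs on the log2 scale. The WT-O3 lungs had 8.71, 8.97 and 8.25, and the WT-Air lungs 8.96, 8.97 and 9.40. Again no Nfkb1KO lung fell among the WT lungs. The genotype difference was 1.41 ± 0.23 after O3 (2.65-fold; limma adjusted p = 0.0108) and 0.94 ± 0.23 in air (limma adjusted p = 0.131). The call after O3 was lost without WT-O3 replicate 3 (1.21, adjusted p = 0.0510) or Nfkb1KO-O3 replicate 1 (1.44, adjusted p = 0.0582). A call after O3 and none in air does not show that they differ, and the interaction was 0.46 ± 0.32 (limma adjusted p = 0.862). O3 gave 0.00 ± 0.23 in Nfkb1KO and -0.46 ± 0.23 in WT lungs (limma adjusted p = 1.00 and 0.283). S100a8 and S100a9 ran closely together over the 12 lungs (Pearson r = 0.96), and also after the group means were taken out (r = 0.75). These correlations are descriptions over lungs of 4 groups.

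Csf3r, the receptor for granulocyte colony-stimulating factor, separated the genotypes in the same way without a call. Its log2 signals were 7.78, 7.85 and 8.18 in Nfkb1KO-O3 and 8.41, 7.97 and 8.47 in Nfkb1KO-Air lungs. They were 7.19, 6.71 and 7.32 in WT-O3 and 7.17, 7.56 and 7.48 in WT-Air lungs. All 6 Nfkb1KO lungs were above all 6 WT lungs. The genotype difference was 0.86 ± 0.23 after O3 and 0.88 ± 0.23 in air (limma adjusted p = 0.141 and 0.146). With arrays weighted by their quality, the difference after O3 was called (0.87, adjusted p = 0.0456). O3 gave -0.35 ± 0.23 in Nfkb1KO and -0.33 ± 0.23 in WT lungs, with groups that overlapped.

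Cxcr2, the chemokine receptor through which neutrophils follow the ligands below, was near the lower limit of the arrays. This limit, the 20th percentile of normalised values, was 4.37 on the log2 scale, and a fold against a group below it is given as a bound. Cxcr2 had 5.94, 6.11 and 4.26 in Nfkb1KO-O3 lungs and 5.13, 4.00 and 5.93 in Nfkb1KO-Air lungs. All 6 WT lungs were below the limit, at 4.09, 3.07 and 3.56 with O3 and 3.53, 2.06 and 4.19 in air. Thus 4 of 6 Nfkb1KO lungs and 0 of 6 WT lungs stood above it. After O3 its level was at least 2.09-fold higher in Nfkb1KO than in WT lungs, with groups that did not overlap, and in air at least 1.57-fold higher. The nearest lungs after O3, at 4.26 and 4.09, were both below the limit, so that the gap between them was poorly measured. Neither comparison was called (limma adjusted p = 0.412 and 0.390). In a whole lung, fewer cells of a type and less RNA per cell cannot be told apart, which holds for each gene here.

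The granule genes Ngp and Ltf gave no call. Ngp, neutrophilic granule protein, measured 7.30, 6.93 and 5.71 in Nfkb1KO-O3 lungs and 7.46, 6.12 and 6.24 in Nfkb1KO-Air lungs, against 6.36, 6.15 and 6.41 in WT-O3 and 6.32, 6.48 and 6.35 in WT-Air lungs. The WT lungs kept within a narrow band, and Nfkb1KO lungs lay on both sides of it. Its genotype differences were 0.34 ± 0.43 after O3 and 0.22 ± 0.43 in air, and its O3 differences 0.04 ± 0.43 in Nfkb1KO and -0.08 ± 0.43 in WT lungs, none of them called. The 95% interval of the genotype difference after O3 ran from -0.59 to 1.27. Without Nfkb1KO-Air replicate 1, the brightest array, the difference in air was -0.21.

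Ltf, an iron-binding protein of secondary granules that airway glands and epithelium also secrete, spanned the widest range of the 10 genes over the 12 lungs. Nfkb1KO-O3 lungs had 10.19, 12.40 and 8.64, and Nfkb1KO-Air lungs 11.97, 12.33 and 12.71. WT-O3 lungs had 11.19, 7.86 and 8.78, and WT-Air lungs 12.88, 8.40 and 8.32. The highest lung of all was WT-Air replicate 1, and in each group other than Nfkb1KO-Air the lungs differed by over 3 log2 units. The difference between Nfkb1KO-O3 and WT-O3 was 1.13 ± 1.20 (limma adjusted p = 0.846) and that between Nfkb1KO-Air and WT-Air 2.47 ± 1.20 (limma adjusted p = 0.466). The O3 differences were -1.93 ± 1.20 in Nfkb1KO and -0.59 ± 1.20 in WT lungs, and the WT value turned to 0.92 without WT-Air replicate 1. Genes whose signals ran most closely with Ltf over the 12 lungs, looked up after its values were seen, were Ptprz1 (r = 0.97), Bpifb1 (0.95), Sult1d1 (0.95) and Adam8 (0.94), and further down Reg3g (0.93). Bpifb1 and Reg3g are secreted by airway epithelium. With the group means removed, r was 0.93 for Bpifb1 and 0.92 for Reg3g, so that the likeness lay within groups. It was as close for Ptprz1 (0.97), Sult1d1 (0.93) and Adam8 (0.91). Which cells gave the Ltf signal was not tested.

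**Figure D2:**
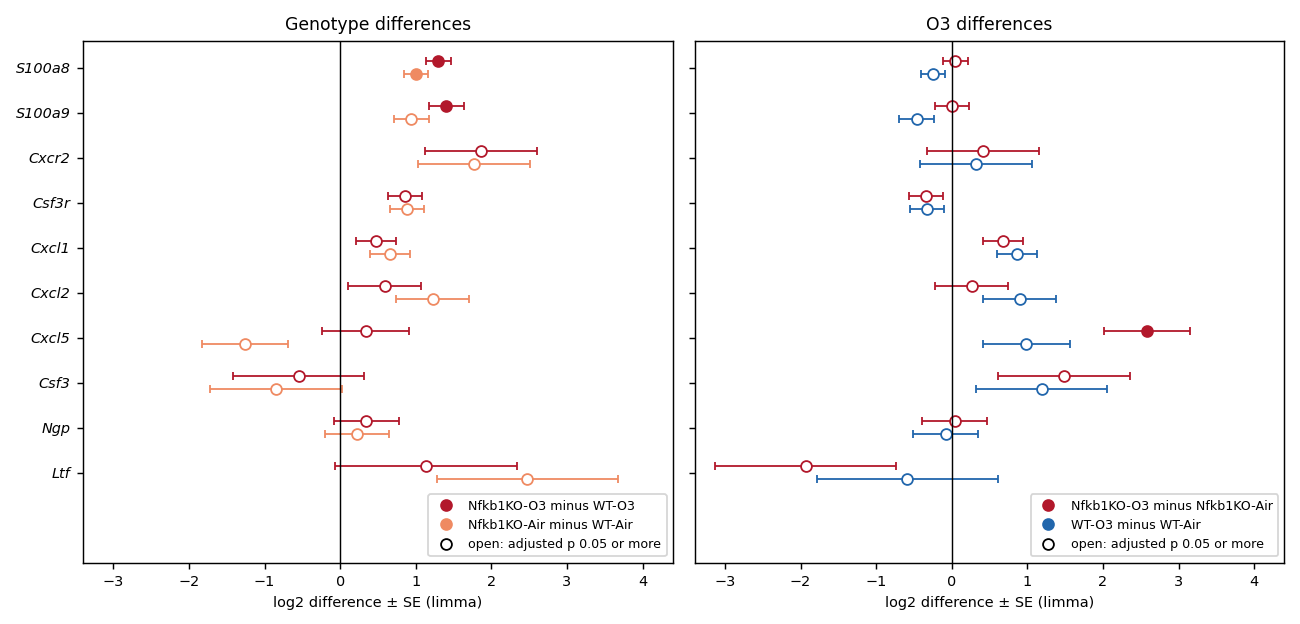
Log2 differences of the 10 genes with SE (horizontal axes; limma, 12 arrays), left between genotypes after O3 and in air, right between O3 and air in each genotype. Filled points have an adjusted p under 0.05 (S100a8 and S100a9 on the left, Cxcl5 on the right). For genotype 9 of the 10 genes lie to the right of 0 after O3 and 8 in air. Cxcl1, Cxcl2, Ngp and Ltf do so under both exposures, as do S100a8, S100a9, Cxcr2 and Csf3r. For O3, 7 lie to the right of 0 in Nfkb1KO and 5 in WT lungs, among them the 4 ligand genes Cxcl1, Cxcl2, Cxcl5 and Csf3.

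Among the ligands, with 1 probe set per gene, Cxcl5 alone was called. This chemokine, called LIX in mice, is made by lung epithelium. Its log2 signals were 7.43, 7.54 and 8.24 in Nfkb1KO-O3 lungs and 4.53, 4.52 and 6.43 in Nfkb1KO-Air lungs. WT-O3 lungs had 7.67, 7.46 and 7.07, and WT-Air lungs 7.65, 6.01 and 5.58. In Nfkb1KO mice every O3 lung was above every air lung, and 2 of the air lungs lay just above the lower limit, while in WT mice 1 air lung reached the level of the O3 lungs. Cxcl5 rose with O3 in Nfkb1KO lungs by 2.58 ± 0.57 (5.99-fold; limma adjusted p = 0.0214), and in WT lungs the difference was 0.99 ± 0.57 (limma adjusted p = 0.380). The interaction, 1.59 ± 0.81, was not called (limma adjusted p = 0.831). The call was lost without Nfkb1KO-Air replicate 1 or 2 or Nfkb1KO-O3 replicate 1 or 3, with differences of 2.25 to 2.72 and adjusted p of 0.0582 to 0.0767. Between genotypes, Cxcl5 differed by 0.34 ± 0.57 after O3 and by -1.26 ± 0.57 in air (limma adjusted p = 0.929 and 0.437).

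Cxcl1, the mouse keratinocyte chemoattractant (KC), was read by 3 probe sets. The brightest of them, whose suffix (_s_at) marks probes shared by several transcripts, stood for the gene. It had 8.96, 8.71 and 8.86 in Nfkb1KO-O3 lungs and 8.55, 8.46 and 7.49 in Nfkb1KO-Air lungs, and 8.13, 8.35 and 8.63 in WT-O3 lungs and 7.77, 7.20 and 7.55 in WT-Air lungs. O3 lungs were above air lungs without overlap in each genotype, by 0.68 ± 0.26 in Nfkb1KO and 0.87 ± 0.26 in WT (limma adjusted p = 0.157 and 0.0814). The genotype differences were 0.47 ± 0.26 after O3 and 0.66 ± 0.26 in air (limma adjusted p = 0.632 and 0.361).

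The probe set specific to 1 transcript (_at) gave a wider O3 difference. It had 8.85, 8.79 and 9.14 in Nfkb1KO-O3 lungs and 6.12, 8.02 and 7.33 in Nfkb1KO-Air lungs, and 8.08, 8.19 and 8.59 in WT-O3 lungs and 7.13, 6.87 and 6.68 in WT-Air lungs. Here too no air lung reached an O3 lung of its genotype. With each probe set tested on its own, it rose with O3 in Nfkb1KO lungs by 1.77 ± 0.36 (3.41-fold; limma adjusted p = 0.0172), and in WT lungs the difference was 1.39 ± 0.36 (2.62-fold; limma adjusted p = 0.0504). The third probe set, whose suffix (_x_at) marks probes that may also bind unrelated transcripts, gave 0.27 ± 0.18 and 0.26 ± 0.18 (limma adjusted p = 0.436 and 0.496). With the mean of the 3 probe sets in place of the brightest, Cxcl1 was called for O3 in both genotypes, at 0.90 in Nfkb1KO (limma adjusted p = 0.0154) and 0.84 in WT (limma adjusted p = 0.0211). It was also called in WT, at 0.87, when Nfkb1KO-Air replicate 3 was left out (limma adjusted p = 0.0252).

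**Figure D3:**
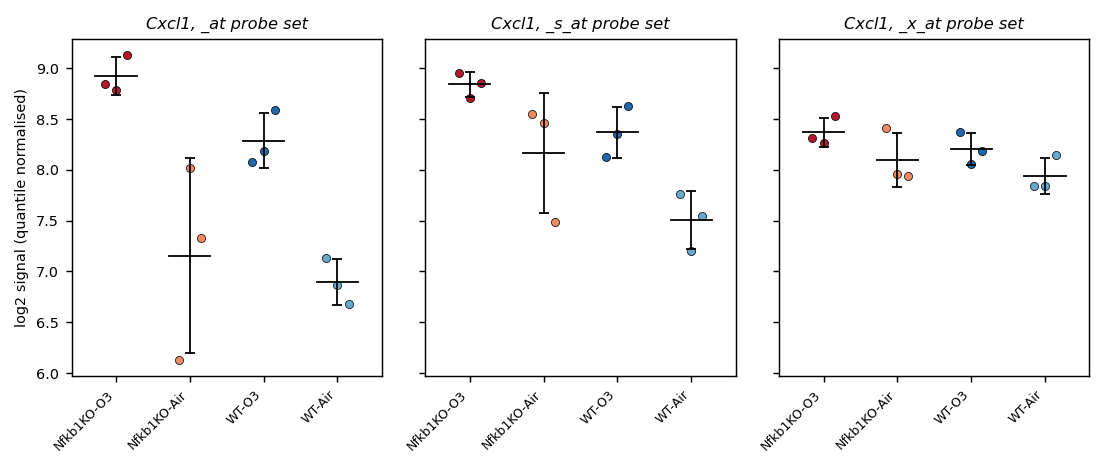
Log2 signal (vertical axis) of the 3 Cxcl1 probe sets by group, with 1 point per lung, a bar at the mean and whiskers of 1 SD (n = 3). O3 and air lungs of each genotype are apart for the _at and _s_at probe sets and overlap for the _x_at probe set, and levels are not comparable between probe sets.

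Cxcl2, also known as macrophage inflammatory protein 2, gave no call. It had 6.61, 5.84 and 7.20 in Nfkb1KO-O3 lungs and 6.57, 6.74 and 5.55 in Nfkb1KO-Air lungs, and 5.99, 5.84 and 6.06 in WT-O3 lungs and 5.93, 4.93 and 4.33 in WT-Air lungs. The groups overlapped in all 4 comparisons. The genotype difference was 0.59 ± 0.48 after O3 and 1.22 ± 0.48 in air (limma adjusted p = 0.780 and 0.360), and the O3 difference 0.27 ± 0.48 in Nfkb1KO and 0.90 ± 0.48 in WT lungs (limma adjusted p = 0.800 and 0.334). Over the 12 lungs Cxcl1 and Cxcl2 had r = 0.80, and 0.63 after group means were removed.

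Csf3 was not measured well by these arrays. Its log2 signal was below the lower limit in 10 of 12 lungs, at 3.21 to 4.00 in Nfkb1KO-O3, 0.99 to 3.18 in Nfkb1KO-Air and 2.17 to 3.56 in WT-Air lungs. The remaining lungs were WT-O3 replicates 2 and 3, at 4.63 and 5.09, beside 2.46 in replicate 1. No fold is given for it, and none of its comparisons was called (limma adjusted p from 0.354 to 0.918).

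Within each genotype no relation between chemokine and S100a8 signals passed a test. The 6 Nfkb1KO and 6 WT lungs formed separate clusters of S100a8, so that no value over all 12 lungs is given, and each genotype holds 3 O3 and 3 air lungs, too few for a value within an exposure. Each value, and its permutation p, therefore mixes shifts between O3 and air with differences among lungs of 1 exposure. Of the 8 relations computed (Cxcl1, Cxcl2, Cxcl5 and Csf3 in each genotype), those of Csf3 are not read, since it lay below the lower limit in 6 of 6 Nfkb1KO and 4 of 6 WT lungs. Over the other 6, Pearson r ran from -0.62 (Cxcl2 in Nfkb1KO) to -0.02 (Cxcl1 in Nfkb1KO). Without the 2 lungs farthest from the median of S100a8 it ran from -0.04 to 0.45 and 5 of the 6 changed sign, so that these values rest on single lungs. For Cxcl2 in Nfkb1KO lungs the exact two-sided permutation p was 0.185 (adjusted 0.745), and Spearman's rho was -0.31 (exact p = 0.564, adjusted 0.919). Without those 2 lungs r was 0.22. For Cxcl1 r was -0.02 in Nfkb1KO and -0.54 in WT lungs (exact permutation p = 0.946 and 0.279), with rho of -0.09 and -0.54 (exact p = 0.919 and 0.297) and r of 0.02 and 0.06 without those 2 lungs. The lowest adjusted p of the 8 Pearson values was 0.745. With 3 lungs against 3, an exact two-sided permutation test of a single gene cannot go below p = 0.1, which is why group differences rest on the fit across all genes.

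The genes most like S100a8 were not those most like Cxcl1. Over the 12 lungs, among genes brighter than the median gene, S100a8 was closest to Msrb1 (r = 0.98), S100a9 (0.96), Parp9 (0.96), Ramp1 (0.92) and Usp18 (0.92), followed by Cfb, Osbpl1a and Adamdec1 (0.90 each). Parp9 and Usp18 are interferon-induced genes, and Msrb1 encodes a methionine sulfoxide reductase abundant in neutrophils. After group means were removed r stayed at 0.87 for Msrb1 and 0.93 for Ramp1, and was 0.37 for Parp9, 0.25 for Usp18 and -0.29 for Cfb, so that Parp9, Usp18 and Cfb were like S100a8 mainly between groups. Csf3r, looked up after its values were seen, was closest to Irf7 (0.94), Irf9 (0.93), Usp18 (0.93) and Xaf1 (0.93), all of them interferon-induced. Cxcl1 was closest to Ethe1 (0.96), Snx11 (0.94), Ttc9 (0.88), Lss (0.88), Fdps (0.87), Lrrfip1 (0.86), Cyp51 (0.86) and Tubgcp2 (0.86), of which Lss, Fdps and Cyp51 are enzymes of cholesterol synthesis.

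Other neutrophil genes were counted from lists chosen with earlier results in view. Of 36 listed surface, cytosolic and signalling genes, S100a8, S100a9, Cxcr2 and Csf3r included, 26 were measured, and the others, Ly6g and Retnlg among them, were not analysed here. After O3, 8 of the 26 were called higher in Nfkb1KO than in WT lungs and 0 lower, beside 0.552% and 0.171% of all genes. The median log2 difference of the list was 0.88, with 24 of 26 positive. In air 2 were higher (S100a8 and Slfn4) and 0 lower, beside 0.256% and 0.0854% of all genes, with a median of 0.68 and 22 of 26 positive. Without Nfkb1KO-Air replicate 1 and WT-Air replicate 3, 8 genes were called after O3 and 2 in air. With arrays centred on their medians, 4 and 1 were. In air S100a8 was not among them in either setting (1.14 and 0.73, limma adjusted p = 0.0709 and 0.483).

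The called genes included receptors and interferon-induced genes as well as calprotectin. After O3, Fcgr3, an activating Fc receptor shared by neutrophils and macrophages, differed by 0.88 ± 0.12 (1.85-fold; limma adjusted p = 0.00422) and Ifitm6, an interferon-induced membrane protein of myeloid cells, by 1.94 ± 0.31 (3.84-fold; limma adjusted p = 0.00989). Slfn4, a Schlafen gene of myeloid cells that interferon induces, differed by 1.86 ± 0.30 after O3 (3.64-fold; limma adjusted p = 0.0106) and by 2.71 ± 0.30 in air (6.53-fold; limma adjusted p = 0.00193). Its signals were 7.78, 7.18 and 7.67 in Nfkb1KO-O3 lungs and 9.51, 9.54 and 9.62 in Nfkb1KO-Air lungs, against 5.53, 5.58 and 5.93 in WT-O3 and 7.30, 6.10 and 7.15 in WT-Air lungs. With O3 Slfn4 fell, by 2.01 in Nfkb1KO and by 1.17 in WT lungs (limma adjusted p = 0.00324 and 0.0406). The remaining called genes, named after their values were seen, were S100a9, Clec4e (2.51 ± 0.42), Fpr2 (0.91 ± 0.16) and Msrb1 (0.48 ± 0.10), of which Clec4e and Fpr2 sense microbial and injury products.

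For O3 the same 26 genes had a median difference of 0.02 in Nfkb1KO and -0.21 in WT lungs, beside -0.01 and -0.03 over all genes. In Nfkb1KO lungs Trem1, an activating receptor of neutrophils and monocytes, rose by 0.81 ± 0.22 (1.76-fold; limma adjusted p = 0.0498) and Slfn4 fell, beside 3.35% and 2.83% of all genes called higher and lower. In WT lungs 0 rose and Slfn4 alone fell, beside 3.16% and 2.24%. Without Nfkb1KO-Air replicate 1 and WT-Air replicate 3, neither the call of Trem1 nor that of Slfn4 in WT lungs held.

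Of 15 secondary and tertiary granule genes 14 were measured, and 0 were called between genotypes after O3 or in air, beside 0.723% and 0.342% of all genes. The median difference between Nfkb1KO and WT lungs was 0.33 after O3, with 12 of 14 positive, and 0.13 in air, with 8 of 14 positive, and 1 gene was called in air without Nfkb1KO-Air replicate 1 and WT-Air replicate 3. For O3 the median was 0.06 in Nfkb1KO lungs, with 9 of 14 positive, and -0.11 in WT lungs, with 5 of 14 positive. Lcn2 and Chil3 rose with O3 in both genotypes, beside 3.35% of all genes called higher in Nfkb1KO and 3.16% in WT lungs. Lcn2, a siderophore-binding granule protein that injured epithelium also makes, had 12.50, 12.69 and 12.81 in Nfkb1KO-O3 and 11.25, 11.86 and 11.63 in Nfkb1KO-Air lungs, a rise of 1.09 ± 0.14 (2.12-fold; limma adjusted p = 0.00157). In WT-O3 lungs it had 13.01, 12.92 and 13.09 and in WT-Air lungs 10.98, 10.94 and 11.25, a rise of 1.95 ± 0.14 (3.87-fold; limma adjusted p = 3.2e-05). The genotype by O3 interaction called 0 of the 14 genes, Lcn2 included, beside 0.0342% of all genes. Chil3, a chitinase-like protein that lung macrophages make in quantity, rose by 0.42 ± 0.09 in Nfkb1KO and 0.45 ± 0.09 in WT lungs (limma adjusted p = 0.0194 and 0.0166). Of these 2 genes, 1 kept its call in each genotype after median centring. Of 7 primary granule genes 5 were measured, and Ctsc (0.47 ± 0.12) and Prtn3 (at least 2.45-fold) rose with O3 in Nfkb1KO lungs (limma adjusted p = 0.0384 and 0.0434), beside 3.35% of all genes, while 0 were called in the other 3 comparisons. Neither call held without Nfkb1KO-Air replicate 1 and WT-Air replicate 3, nor after median centring. Between Nfkb1KO and WT lungs the 5 primary granule genes had median differences of -0.20 after O3 and -0.27 in air. Under each exposure 4 of the 5 were negative, unlike most genes of the other 2 neutrophil lists.

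Of 15 genes for Cxcr2 ligands, receptors and their signalling, 14 were measured. Cxcl5 rose and Ppbp, a platelet chemokine, fell with O3 in Nfkb1KO lungs (Ppbp by 1.23 ± 0.33 on the log2 scale; limma adjusted p = 0.0476), beside 3.35% and 2.83% of all genes called higher and lower. In the other 3 comparisons 0 were called, beside 0.723% of all genes for genotype after O3, 0.342% in air and 5.4% for O3 in WT lungs. Without Nfkb1KO-Air replicate 1 and WT-Air replicate 3 neither was called, and after median centring Ppbp was not. Cxcl3, whose promoter held the same exact site as Cxcl1 and Cxcl2, had 5.94, 6.11 and 7.16 in Nfkb1KO-O3 and 4.94, 5.26 and 5.33 in Nfkb1KO-Air lungs, and 6.58, 7.20 and 6.78 in WT-O3 and 5.82, 5.72 and 5.03 in WT-Air lungs. O3 and air lungs did not overlap in either genotype, with differences of 1.23 ± 0.39 in Nfkb1KO and 1.33 ± 0.39 in WT lungs that missed the threshold (limma adjusted p = 0.0817 and 0.0680). Between genotypes Cxcl3 differed by -0.45 ± 0.39 after O3 and -0.35 ± 0.39 in air.

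In the axis of granulocyte colony-stimulating factor and interleukin-17, 19 of 23 genes were measured. With O3 2 of them were called in Nfkb1KO and 1 in WT lungs, beside 6.18% and 5.4% of all genes, and 0 between genotypes. Socs3, which damps signalling from Csf3r and related receptors, rose with O3 by 1.41 ± 0.15 in Nfkb1KO and 1.42 ± 0.15 in WT lungs (limma adjusted p = 0.000926 and 0.000486). It had 11.97, 11.93 and 12.12 in Nfkb1KO-O3 and 10.13, 10.82 and 10.84 in Nfkb1KO-Air lungs, and 11.69, 11.73 and 11.77 in WT-O3 and 10.35, 10.33 and 10.26 in WT-Air lungs. Cebpd, a transcription factor of acute inflammation, rose by 1.50 ± 0.25 in Nfkb1KO lungs (limma adjusted p = 0.00592). In WT lungs its difference was 0.91 ± 0.25 (limma adjusted p = 0.0586), with groups that did not overlap, and the interaction was 0.59 ± 0.36 (limma adjusted p = 0.841). Of 18 measured genes of neutrophil adhesion and entry, Icam1, an endothelial and epithelial ligand of neutrophil integrins, rose with O3 by 0.53 ± 0.11 in Nfkb1KO and 0.71 ± 0.11 in WT lungs (limma adjusted p = 0.0140 and 0.00378), and 0 others were called in any of the 4 comparisons. That is 1 of 18 in each O3 comparison, beside 6.18% of all genes in Nfkb1KO and 5.4% in WT lungs. After median centring Icam1 was not called.

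**Figure D4:**
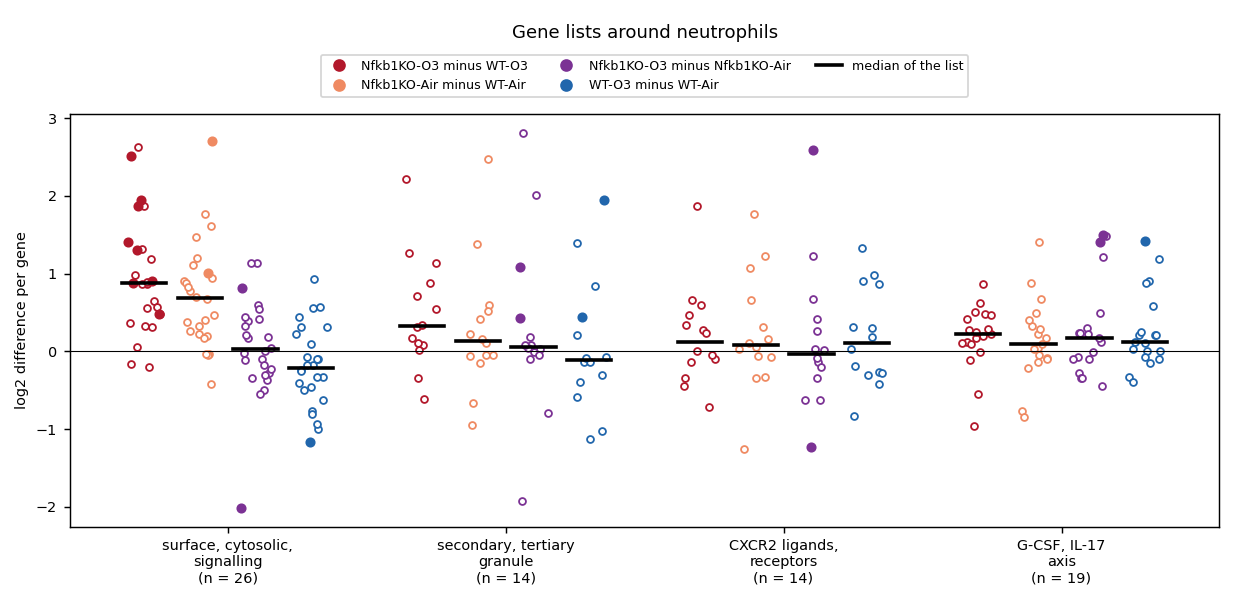
Log2 differences of single genes (vertical axis) in 4 gene lists, coloured by comparison. Filled points have an adjusted p under 0.05 and black bars are list medians. The bars of the surface, cytosolic and signalling genes stand at 0.88 and 0.68 for genotype, and at 0.02 and -0.21 for O3.

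Markers of other blood cells moved with genotype too. Summed signals of the 26 neutrophil genes were 18141 to 19594 in Nfkb1KO-O3 against 12047 to 13041 in WT-O3 lungs, and 18509 to 20801 in Nfkb1KO-Air against 12051 to 16362 in WT-Air lungs. Those of 11 measured red cell and platelet genes, Ppbp among them, were 9501 to 11392 in Nfkb1KO-O3 against 6324 to 7897 in WT-O3 lungs, and 12553 to 17053 in Nfkb1KO-Air against 8443 to 11459 in WT-Air lungs, likewise without overlap. After O3 10 of these 11 were positive, with a median difference of 0.77, and 2 were called higher in Nfkb1KO than in WT lungs, beside 0.552% of all genes: Slc4a1, the anion exchanger of red cells (2.33 ± 0.45; limma adjusted p = 0.0324), and Gp1bb, a platelet adhesion receptor subunit (1.18 ± 0.18; limma adjusted p = 0.00823). In air 9 of 11 were positive and 0 were called, beside 0.256% called higher. Of the globins, Hbb-b2 lay between 11.07 and 11.57 on the log2 scale in Nfkb1KO-O3 against 10.11 and 11.03 in WT-O3 lungs, and between 11.47 and 12.89 in Nfkb1KO-Air against 10.24 and 11.37 in WT-Air lungs. The genotypes did not overlap under either exposure, with differences of 0.77 ± 0.35 after O3 (1.70-fold; limma adjusted p = 0.517) and 1.37 ± 0.35 in air (2.59-fold; limma adjusted p = 0.143) that were not called, and its probe set (_x_at) may also bind related globins. Hba-a2 overlapped between genotypes under both exposures. It lay between 6.34 and 7.21 in Nfkb1KO-O3 against 6.33 and 7.24 in WT-O3 lungs. In air it lay between 3.86 and 6.22 in Nfkb1KO against 4.82 and 6.23 in WT lungs. Hba-a1 lay between 1.46 and 5.63 over all lungs, around the lower limit. The part of blood left in the tissue in the genotype differences of S100a8 and S100a9 was not tested.

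Monocyte genes, 9 of which were measured, summed to 8727 to 11615 in Nfkb1KO-O3 against 8832 to 9375 in WT-O3 lungs, with overlap, and to 12872 to 13159 in Nfkb1KO-Air against 9774 to 12009 in WT-Air lungs, without. Fcgr4, an Fc receptor of monocytes and neutrophils, was 2.07 ± 0.18 higher in Nfkb1KO than in WT lungs after O3 (4.19-fold; limma adjusted p = 5.9e-05). With O3 in Nfkb1KO lungs Fcgr4 rose by 1.04 ± 0.18 and Ccr2, the receptor that brings monocytes out of marrow, fell by 1.01 (limma adjusted p = 0.00649 and 0.0314), the call of Ccr2 being lost without Nfkb1KO-Air replicate 1 and WT-Air replicate 3. Summed alveolar macrophage genes overlapped between genotypes under both exposures, at 24323 to 46866 in Nfkb1KO-O3 against 26253 to 30819 in WT-O3 lungs, and 26081 to 35532 in Nfkb1KO-Air against 19018 to 41995 in WT-Air lungs. Single genes differed: in air 1 of the 10 measured was called lower in Nfkb1KO lungs and 0 higher, beside 0.0854% and 0.256% of all genes. Marco had log2 signals of 7.27 to 7.55 in Nfkb1KO-Air and 8.67 to 9.73 in WT-Air lungs. With O3, 3 were called higher in Nfkb1KO and 2 in WT lungs, Chil3 in both, beside 3.35% and 3.16%. After median centring these were 1 and 0. Eosinophil, mast cell and basophil genes were low, at 281 to 381 in Nfkb1KO-O3, 333 to 455 in Nfkb1KO-Air, 245 to 309 in WT-O3 and 176 to 656 in WT-Air lungs for 8 genes. What monocytes added to the receptor signals was not tested.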

How the data were processed

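The authors hybridised left lung RNA of each mouse to 1 array and deposited 1 linear signal intensity for each probe set, computed with MAS5 in Affymetrix Expression Console (versions not given in the sources used here) and scaled to a trimmed mean of 500. The table held 45101 probe sets, of which 64 controls were set aside. Probe sets were named from the platform annotation: 34958 had 1 symbol, 932 several and 9211 none. Signals were floored at 1, taken to log2 and quantile normalised. Probe sets at or below the 20th percentile on all arrays were left out, and the brightest probe set stood for a gene. Group means of all 12 arrays were fitted with limma 3.58.1 (R 4.3.3), with a trend in the spread and Benjamini-Hochberg adjustment over 17569 genes. The fit was tested on simulated data. Groups followed the sample labels, and no 2 arrays held identical values. No detection calls were used. Precision is limited by the number of arrays.

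The genes and lists were chosen with earlier results of these data known. Named were the 10 genes, up to 4 called genes per list and comparison by smallest p, and the 8 genes most like S100a8 and Cxcl1; exceptions are marked. The design had a correlation of ligands with S100a8 over all lungs, which was replaced by values within genotype. Alternatives were median centring, another offset, no filter, no trend, other probe set rules, array weights, fits of the compared groups only, a replicate block, an unmoderated t-test of the compared groups (the methods name a moderated one for air, and an analysis of variance after O3) and each array left out. Where leaving out arrays left 2 in a group, its spread came from all groups.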

Additional observations from a re-analysis of the deposited data

How the results depend on the processing

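S100a8 after O3 kept its direction in 24 alternatives (1.11 to 1.46) and its call in 23, the exception being an unmoderated t-test of the compared groups (adjusted p = 0.271). S100a9 after O3 was called in 19 (1.21 to 1.56), S100a8 in air in 16 (0.73 to 1.14) and Cxcl5 with O3 in Nfkb1KO lungs in 16 (1.93 to 3.22), each with its direction kept in all 24. The cause of lost calls was not tested, except that settings with fewer arrays have fewer samples.

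Of the 10 genes, the number called in air, after O3, for O3 in WT and for O3 in Nfkb1KO lungs was 1, 2, 0 and 1. Centring arrays on medians gave 0 in air and 1 after O3, and no trend gave 0, 1 and 0 in air, after O3 and in Nfkb1KO lungs. The mean of probe sets gave 1 in WT and 2 in Nfkb1KO lungs, while array weights and every probe set on its own gave 2 in Nfkb1KO lungs, and a fit of those groups alone 0. The t-test, whose moderated form the methods name for air and not for the genotypes after O3, gave 0 in air, after O3 and in Nfkb1KO lungs, and 3, 5, 1 and 1 unadjusted. Of all 17569 genes, 1182, 1922, 3279 and 2771 passed the same unadjusted threshold of 0.05 by this test. Without Nfkb1KO-Air replicate 1 and WT-Air replicate 3 together, 0 were called in air and in Nfkb1KO lungs. Leaving out each array gave 0 to 1 in air, 1 to 2 after O3, 0 to 1 in WT and 0 to 1 in Nfkb1KO lungs.

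Median centring gave a median difference over all genes of -0.20 in air and 0.25 for O3 in Nfkb1KO lungs, in place of -0.01 in each. It left 9, 78, 87 and 308 genes called in place of 60, 127, 949 and 1086, and for O3 in Nfkb1KO lungs 289 higher and 19 lower in place of 589 and 497, in WT lungs 76 and 11 in place of 555 and 394. On this scale the surface, cytosolic and signalling genes had medians of 0.93 after O3 (4 called) and 0.58 in air (1 called). The relation of S100a8 to Cxcl1 in Nfkb1KO lungs turned to r = 0.46 (exact permutation p = 0.35), and that to Cxcl5 to 0.45 (exact permutation p = 0.393). These relations were not run without the 2 arrays, which would leave 5 per genotype.

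Signs of small differences turned. For O3 in Nfkb1KO lungs, S100a9 was 0.36 after median centring and 3e-04 with control probe sets kept, and S100a8 -0.0088 with array weights. With single arrays left out, S100a9 ran from -0.22 to 0.14 there, S100a8 from -0.14 to 0.22, Ngp from -0.28 to 0.51, Cxcl2 from -0.10 to 0.62 and Cxcr2 from -0.094 to 1.00. For O3 in WT lungs Ltf ran from -1.55 to 0.92 and Cxcr2 from -0.28 to 0.78. Ngp in air was -0.062 with array weights, -0.23 without the 2 arrays and -0.21 to 0.46 without single arrays. Of the 10 interactions, 5 changed sign in at least 1 setting.

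Same-numbered arrays of different groups had correlations of deviations from -0.47 to 0.38 over 18 pairs (median -0.02). Those of different number had -0.51 to 0.57 over 36 pairs (median 0.02). Between O3 and air arrays of 1 genotype, values ran from -0.06 to 0.38 where numbers matched and from -0.46 to 0.25 where they did not. With the replicate number as a block 1, 2, 0 and 1 of the 10 genes were called, as without it. Cxcr2 and Csf3 lay mostly below the lower limit, so that their differences are poorly measured.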
